A study of Mus musculus with 2 samples.

Results

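The immunoglobulin kappa light chain locus of the mouse lies on chromosome 6, and the junctions described here are the gapped read alignments that the deposited junction list places inside it. They were chosen by 2 values of each row, its position and its number of reads: both ends within chr6:67500000-70750000 of the mm9 assembly, and 2 or more reads. The rule found 773 junctions among the 249189 of the whole list that had 2 or more reads. Without the minimum, 1512 of 428708 rows lay in the window. Just outside the minimum were 739 rows with 1 read, and just inside it were 277 rows with 2 reads and 120 rows with 3 reads.

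The RNA came from spleens of C57BL/6J mice, adults aged 8 weeks, and 2 biological replicates, called library 1 and library 2, form the only group. The labels describe littermates of both sexes and name no allele, agent or treatment. The animals behind each library are not identified. Polyadenylated RNA was read from both ends with reads of 76 bases, keeping the strand. No condition is compared, and spread between the libraries may be technical.

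Each kappa light chain is made from a variable (V) gene, a joining (J) segment and the single constant (C) gene Igkc. In developing B cells the RAG recombinase cuts the DNA beside 1 V gene and 1 J segment, and repair enzymes join them. The leader intron inside the V gene and the intron between J and C remain in the transcript and are removed by RNA splicing. A read from a mature kappa message can therefore hold 3 kinds of gap against an unrearranged genome: the V gene's own intron and the J to C intron, both made by splicing, and the V to J gap, made in the DNA. V genes in the same orientation as J are joined by deletion of the DNA between them, and V genes in the opposite orientation by inversion, which leaves no gap that runs along 1 strand of the reference.

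The sequences below carry the V to J results. They are the 5 annotated J segments and the last 30 bases of the 4 V genes with the most V to J reads, from GENCODE M21 transcripts of the GRCm38 assembly, written 5′ to 3′. Capitals mark the bases at the joining end that at least 1 listed junction left out (at most 10 bases from the annotated end were considered for the capitals). Igkj3 has no capitals because no listed junction reached it.
Igkj1: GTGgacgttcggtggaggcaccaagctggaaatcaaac
Igkj2: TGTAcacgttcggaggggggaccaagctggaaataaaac
Igkj3: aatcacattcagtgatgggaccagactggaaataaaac
Igkj4: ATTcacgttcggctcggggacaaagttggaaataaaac
Igkj5: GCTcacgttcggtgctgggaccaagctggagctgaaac
Igkv3-4: ttactgtcagcaaagtaatgaggaTCCTCC
Igkv3-5: ttactgtcagcaaagtaatgaggatcCTCC
Igkv3-10: ttactgtcagcaaaataatgaggatcCTCC
Igkv3-12: ttactgtcagcacagtagggagctTCCTCC

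The 3 V to J junctions with the most reads joined these ends as follows, with the J bases in capitals and 30 V bases before them. The V part of the joined sequence differs by 1 base between the Igkv3-4 and the Igkv3-10 join.
Igkv3-4 to Igkj2: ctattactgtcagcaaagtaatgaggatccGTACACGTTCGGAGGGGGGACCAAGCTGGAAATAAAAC
Igkv3-4 to Igkj1: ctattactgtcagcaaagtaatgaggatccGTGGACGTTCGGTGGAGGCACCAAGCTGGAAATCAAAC
Igkv3-10 to Igkj5: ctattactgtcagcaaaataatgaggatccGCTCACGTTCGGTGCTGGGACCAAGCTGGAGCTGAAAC

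The row names of the list carry 2 read counts, tagged R1 and R2, whose sum was the number of reads in every row. They are read here as the counts of library 1 and library 2 from their numbers, which the list does not state. The names also carry a tag A, read here as presence in an annotation, and a tag C, read here as a canonical splice motif. Neither tag is explained in the deposited notes. The list summed to 21824301 R1 reads and 25426440 R2 reads, of which the 773 junctions held 78637 (0.36%) and 69141 (0.272%). The gene tables held 49686344 and 51393345 counts for library 1 and library 2.

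Markers of B cells were well above detection in both libraries, with all 6 at 26.0 TPM or more, and all 4 spleen markers were at 6.66 TPM or more. The 4 pancreatic acinar markers (Ctrb1, Cela2a, Prss2 and Clps) were also high, at 8311 to 36979 TPM, and summed to 72900 TPM (library 1) and 55100 TPM (library 2). The part of that pancreatic signal in the results below was not tested.

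The 773 junctions held 147778 reads, and a few classes of junction held most of them. Classes were set after the values were seen, from the distance of each end to the C exon and the distances between annotated exons in GRCm38. All 63 junctions with tag A matched an annotated intron by length, strand and distance. Introns of V genes made up 92 junctions with 65171 reads (44.1% of the reads). Gaps from a J segment to C made up 14 junctions with 56446 reads (38.2%).

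V to J gaps were more numerous but held fewer reads, with 129 junctions and 3665 reads (2.48%). Gaps between 2 V genes were the most numerous class, with 246 junctions and 14233 reads (9.63%). Another 94 junctions with 3218 reads lay within a single V gene without matching its annotated intron. Rpia, a gene of the pentose phosphate pathway next to the kappa locus, gave 8 minus-strand introns with 1458 reads. The remaining 190 junctions, which began or ended in C, in a J segment, in 1 V gene, beyond C or in none of these, held 3587 reads.

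**Figure D1:**
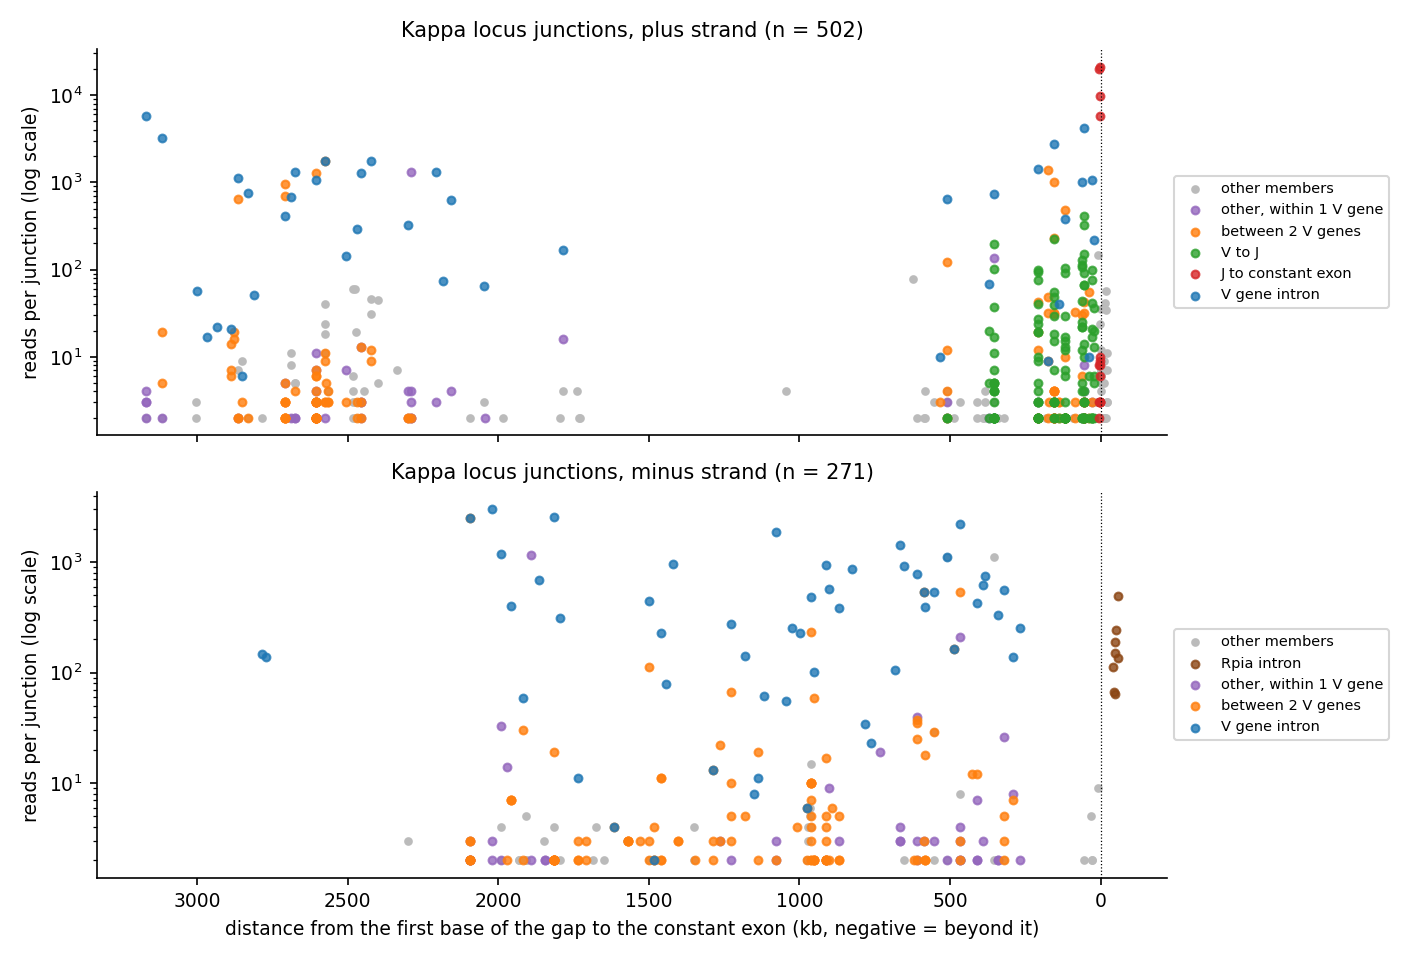
Each point is 1 junction of the kappa locus, by distance from the first base of its gap to the C exon (kb, x axis) and its reads (log scale, y axis), with the 502 plus-strand junctions above and the 271 minus-strand junctions below. The J to C gaps of Igkj5, Igkj1 and Igkj2 (21107, 19787 and 9775 reads) stand above all others. The Igkv2-137 intron (5734 reads) lies just above the gap from Igkj4 to C (5722 reads). V gene introns are spread over both strands, and V to J gaps lie on the plus strand within 510 kb of C.

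The 10 junctions with the most reads held 52.7% of all reads and were 4 J to C gaps and 6 V gene introns. The J to C gaps ran from the 3′ end of a J segment to the first base of C at a shared last base, 70676428. Igkj5 to C (chr6:70673918-70676428, a gap of 2511 bases) had 21107 reads, 11539 in R1 and 9568 in R2. Igkj1 to C (chr6:70672594-70676428, 3835 bases) had 19787 reads, 10399 in R1 and 9388 in R2.

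Igkj2 to C (chr6:70672949-70676428, 3480 bases) had 9775 reads, 4605 in R1 and 5170 in R2. Igkj4 to C (chr6:70673580-70676428, 2849 bases) had 5722 reads, 2750 in R1 and 2972 in R2. By number of reads, the order of the 4 segments was the same in both tags: Igkj5, Igkj1, Igkj2, Igkj4. Igkj5 and Igkj1 were close in R2. No row of the list, at any number of reads, ran from Igkj3 to C. Igkj3 is the J segment of the mouse kappa locus known to be non-functional.

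As shares of the 56391 reads of these 4 gaps, Igkj5 had 37.4% (95% Wilson interval 37.0 to 37.8), Igkj1 35.1% (34.7 to 35.5), Igkj2 17.3% (17.0 to 17.6) and Igkj4 10.1% (9.9 to 10.4). For Igkj3 the count of 0 allows a share of up to 0.00532% (3 reads). These intervals and limits reflect counting error alone, because the reads carry no molecular identifiers and need not be separate molecules. Between the tags, the share of Igkj5 was 39.4% in R1 and 35.3% in R2. That of Igkj2 was 15.7% in R1 and 19.1% in R2, and that of Igkj4 9.39% and 11.0%. These differences were wider than the counting intervals, whereas the Igkj1 shares of 35.5% and 34.6% had overlapping intervals. Within R2 the intervals of Igkj5 (34.7 to 35.9) and Igkj1 (34.1 to 35.2) also overlapped, so their order there was not beyond counting error.

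The same last base before C was shared by 10 junctions with 56581 reads, of which the 4 J ends gave 99.7%. The next largest ran from chr6:70669372, upstream of the J segments, over 7057 bases into C and had 147 reads, 71 in R1 and 76 in R2. By distance, this start is the end of an annotated exon of Gm30211, a long non-coding RNA gene of GRCm38 that spans the J and C region. Transcripts of the unrearranged kappa locus are known to start upstream of J and to be spliced into C. A contig, a stretch of continuous coverage in the deposited contig list, covered that start (chr6:70668848-70669449, plus strand) at a level of 23.7. The contig over the J segments and the start of C (chr6:70670249-70676978) had a level of 564, against a median of 0.245 over the 715 contigs of the window.

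The other 5 starts into that base had 24 reads or fewer. Another 10 J to C junctions used ends other than the annotated J end and the first base of C, by up to 8 bases. They held 55 reads (0.0974% of the J to C reads) and none had tag C. Within the C exon 27 short gaps held 137 reads, and 2 of them had tag C.

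V to J gaps, sought on the plus strand, nearly all lacked the tag read as a canonical splice motif: 2 of 129 had tag C. They linked 12 V genes with 4 J segments in 37 combinations, over gaps of 18387 to 506962 bases. The 2 rows with tag C, both into a point 4 bases before Igkj2, came from Igkv3-2 (76 reads) and Igkv3-1 (6 reads). Igkj1 received 44 junctions with 1408 reads, Igkj2 35 with 1163 reads, Igkj5 35 with 874 reads and Igkj4 15 with 220 reads. No V to J junction reached Igkj3, which allows a share of up to 0.0819% of the 3665 reads.

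Igkj1 thus held 38.4% of V to J reads (95% Wilson interval 36.9 to 40.0), Igkj2 31.7% (30.2 to 33.3), Igkj5 23.8% (22.5 to 25.3) and Igkj4 6.0% (5.28 to 6.82). For Igkj2, Igkj4 and Igkj5 these intervals did not overlap those of the J to C gaps, pooled or within either tag. For Igkj1 the pooled intervals did not overlap, but the difference rested on R2, with 43.8% of V to J reads (41.4 to 46.3) against 34.6% of J to C reads (34.1 to 35.2). In R1 Igkj1 had 34.4% (32.4 to 36.5) against 35.5%, and the intervals overlapped. The V to J gaps came from 12 V genes, whereas any rearranged V gene can stand before a J to C gap. The J segments are also alike: Igkj1 and Igkj2 are identical at 26 of their last 30 bases, and Igkj2 and Igkj4 at 25. Whether reads were assigned to the right J segment was not tested, and the intervals do not cover that error.

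**Figure D2:**
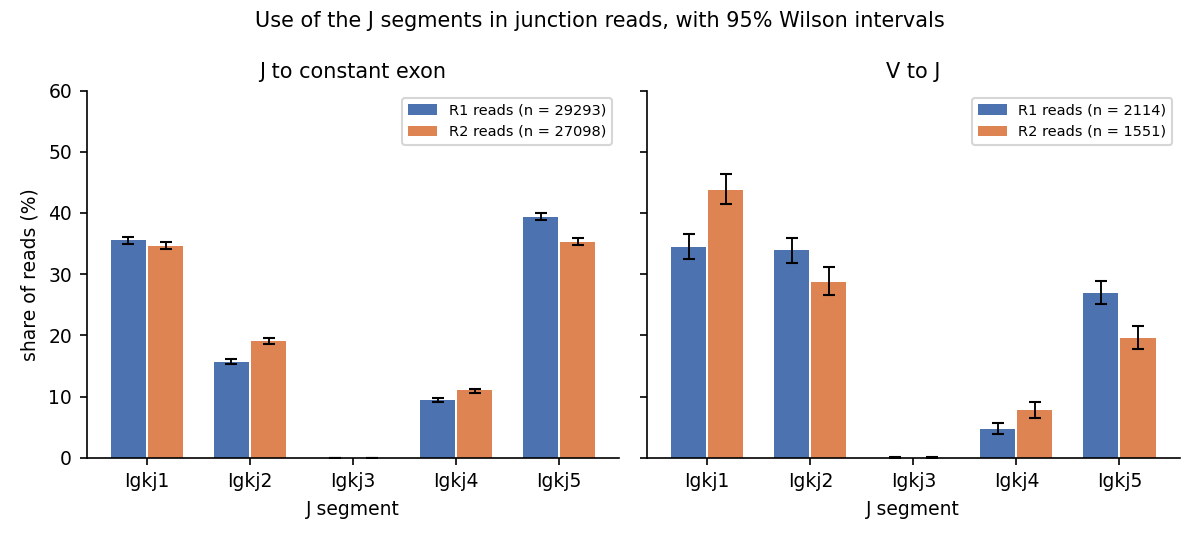
Bars give the share of reads (%, y axis) at each J segment (x axis) in J to C gaps (left, 29293 R1 and 27098 R2 reads) and in V to J gaps (right, 2114 R1 and 1551 R2 reads), with 95% Wilson intervals. Igkj5 leads the J to C gaps at 39.4% and 35.3%, Igkj1 leads the V to J gaps at 34.4% and 43.8%, and Igkj3 is at 0 in both. In R2 the J to C intervals of Igkj5 and Igkj1 overlap, and in R1 the V to J intervals of Igkj1 and Igkj2 overlap.

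Of the 12 V genes, 9 belong to the Igkv3 subgroup, 2 to Igkv6 and 1 to Igkv8. Igkv3-4 had the most V to J reads, 1159 (864 in R1 and 295 in R2), in 17 junctions. Igkv3-5 followed with 489 reads (282 and 207), Igkv3-10 with 452 (321 and 131), Igkv3-12 with 448 (214 and 234) and Igkv6-17 with 413 (169 and 244). Igkv3-7 had 318 reads (104 and 214), Igkv3-2 had 263 (107 and 156) and Igkv3-1 had 82 (24 and 58). The last 4 genes, Igkv8-18, Igkv3-3, Igkv6-25 and Igkv3-8, had 27, 8, 4 and 2 reads. Igkv3-4 and Igkv3-5 are identical over their last 30 bases, and each matches Igkv3-10 at 29 of them. Whether reads of these joins were assigned to the right V gene was not tested, so the counts of related genes are uncertain.

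The order of the V genes was not the same in both tags. Igkv3-4 led in both, with 864 reads in R1 and 295 in R2. Behind it in R1 came Igkv3-10 (321), Igkv3-5 (282) and Igkv3-12 (214). Behind it in R2 came Igkv6-17 (244), Igkv3-12 (234), Igkv3-7 (214) and Igkv3-5 (207). The J segment with the most reads for a V gene could also differ between the tags. Igkv3-10 gave 225 of its 321 R1 reads with Igkj5, 214 of them from a single join. In R2 it gave 23 of 131 with Igkj5, and Igkj1 led with 59. Igkv6-17 gave 107 of its 169 R1 reads with Igkj2, and in R2 108 of 244, beside 114 with Igkj1.

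**Figure D3:**
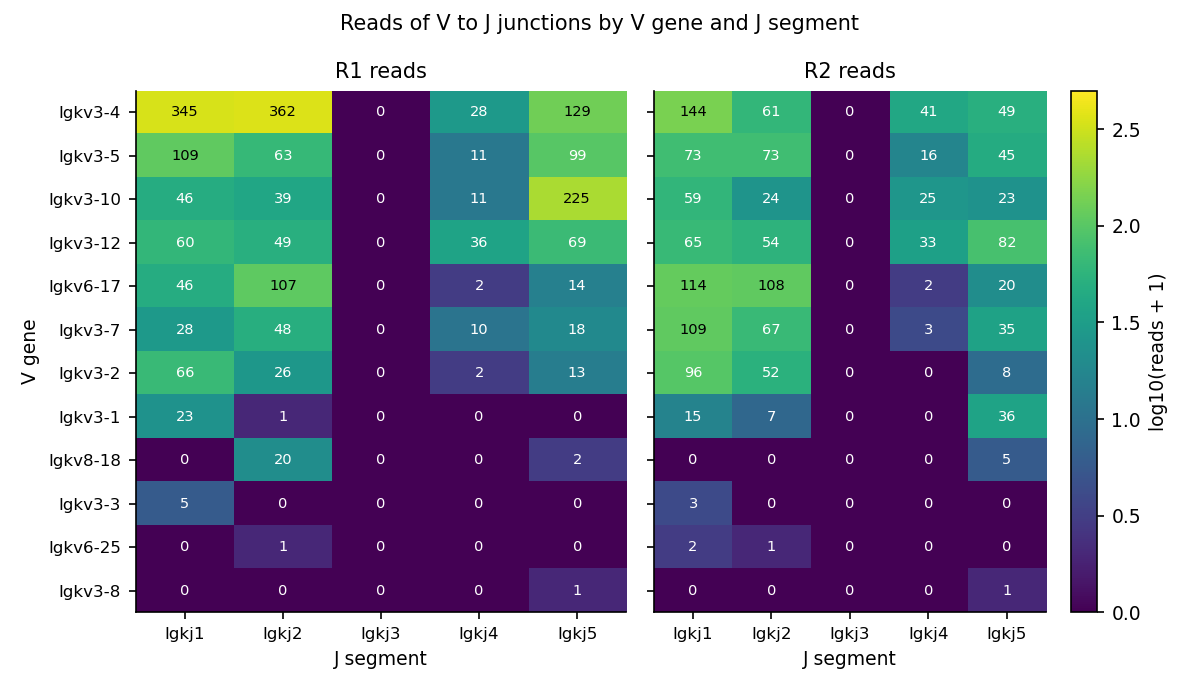
Cells give the V to J reads of each V gene (rows) with each J segment (columns), as numbers and as colour on a log10(reads + 1) scale, for R1 (left) and R2 (right). Igkv3-4 is the row with the most reads in both panels (864 and 295), and the Igkj3 column is 0 throughout.

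The joins with the most reads all kept close to the annotated ends. Igkv3-4 to Igkj2 (chr6:70622369-70672910) had 413 reads, 355 in R1 and 58 in R2. Igkv3-4 to Igkj1 (chr6:70622369-70672555) had 322 reads, 234 in R1 and 88 in R2. Igkv3-10 to Igkj5 (chr6:70523222-70673879) had 225 reads, 214 in R1 and 11 in R2. All 3 left out the last 3 bases of the V gene, which are among the capitals printed above, and the first left out 1 base of Igkj2 as well.

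Single joins could be present in 1 tag alone. Of the 53 V to J junctions with 10 or more reads, 5 had all their reads in 1 tag (9.43%), against 0 of 86 V gene introns and 0.687% of the 120057 junctions of the list at that minimum. An Igkv6-17 to Igkj1 join had 0 R1 and 37 R2 reads, and an Igkv3-1 to Igkj5 join had 0 R1 and 36 R2 reads. An Igkv8-18 to Igkj2 join had 20 R1 and 0 R2 reads, and an Igkv3-12 to Igkj4 join had 19 R1 and 0 R2 reads. These joins, chosen after their values were seen, are the 4 with the most reads among those 5. The compared sets differ in depth, and reads in 1 tag alone are likelier where reads are few. With 2 or more reads, the median was 5 for V to J junctions, 382.5 for V gene introns and 8 for the whole list. The part of depth in this contrast was not tested.

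The net number of bases left out was nearly constant among the listed joins. Bases missing from the annotated V end and J end were summed, with bases kept beyond either end counted as negative. This net sum was 3 with Igkj1, Igkj4 and Igkj5 and 4 with Igkj2 in 81 of 129 junctions, which held 3498 of 3665 reads (95.4%). Among them, 2 Igkj2 junctions with 82 reads, those with tag C, were placed with 8 V bases left out and 4 bases before the J segment kept. Whether these 2 gaps could also be placed elsewhere was not tested. The split between V and J varied within that sum. With Igkj1, 787 reads left out 3 V bases and 0 J bases, 326 left out 1 and 2, and 231 left out 0 and 3. No junction left out more than 4 bases of a J segment, and the most left out of a V gene was 15. Only joins listed as 1 gap near annotated V and J ends entered this class. Joins that did not align in that way are not covered by these counts or by the reading frames below.

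The V to J reads almost all kept the reading frame. A V to J join can fall in any of 3 frames, and only 1 of them carries the V frame into C. From the annotated coding phases, 3619 of 3663 reads were in frame, 98.8% (95% Wilson interval 98.4 to 99.1), with 99.3% in R1 and 98.1% in R2. Counted as junctions, 110 of 128 were in frame. Igkv3-8, with 1 junction of 2 reads, is annotated without a coding end that allows the count. By segment the in-frame share of reads was 98.7% for Igkj1, 99.7% for Igkj2, 97.3% for Igkj4 and 98.3% for Igkj5.

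**Figure D4:**
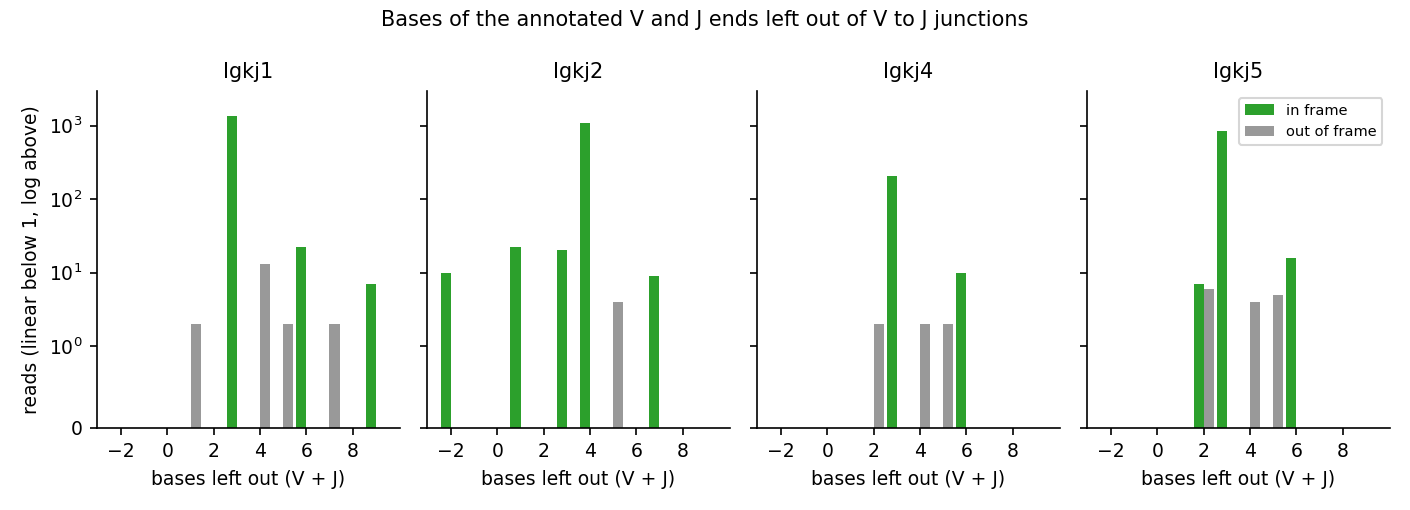
Bars give V to J reads (y axis, log above 1) by the net number of annotated V and J bases left out together (x axis), for the 4 J segments in use. Bases kept beyond an annotated end count as negative. In-frame reads are in green and out-of-frame reads in grey. One bar stands above the rest in each panel, at 3 bases for Igkj1 (1360 reads), Igkj4 (204) and Igkj5 (834), and at 4 bases for Igkj2 (1098).

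V to J junctions were also where ends were shared most. The last base 70672557, which leaves out 2 bases of Igkj1, was shared by 15 junctions with 341 reads. The 10 of them with the most reads were led by Igkv6-17 (101 reads), Igkv3-4 (67), Igkv3-5 (44), Igkv3-2 (41), Igkv3-10 (39), Igkv3-12 (19) and Igkv3-7 (13). A gap of 5448 bases from a point outside any V gene had 3 reads there, and the other 2, from Igkv6-25 and Igkv6-17, had 2 reads each. The 5 remaining starts at that base, again from V genes of this group, had 2 reads each.

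The next most shared ends were also J starts. The last base 70672910, which leaves out 1 base of Igkj2, was shared by 13 junctions with 1020 reads. The last base 70673879, the full start of Igkj5, was shared by 12 with 645 reads. Ends at 70672558 (Igkj1, 238 reads) and 70673880 (Igkj5, 150 reads) were shared by 11 junctions each.

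Over all members, 431 of 773 (55.8%) shared their first base and 465 (60.2%) shared their last base with another member on the same strand, and 605 (78.3%) shared at least 1. Over the whole list with the same minimum, 28.4% shared the first base, 28.6% the last base and 45.0% at least 1. The members had 489 distinct first bases and 452 distinct last bases.

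By strand, 502 junctions (64.9%) with 107187 reads (72.5%) were on the plus strand, the strand of J and C, and 271 with 40591 reads were on the minus strand. In the whole list 124657 of 249189 junctions and 54.1% of reads were on the plus strand. Without the J to C and V to J classes, which lie on the plus strand by the order of their segments, 359 of 630 junctions were on the plus strand.

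Introns of V genes were found for 86 of the 102 V genes that GRCm38 annotates as genes and for 6 of its 74 V pseudogenes. Each of these 92 junctions had tag C, all had reads in both tags, and their reads ranged from 2 to 5734 with a median of 382.5. The largest was that of Igkv2-137 (chr6:67505679-67505897), with 5734 reads, 3631 in R1 and 2103 in R2. Igkv3-4 (chr6:70621832-70622061) had 4245 reads, 3341 in R1 and 904 in R2. Some introns belonged to genes with almost no counts in the gene tables. Igkv6-29 had 535 intron reads beside 3 and 4 counts, and Igkv13-85 had 310 beside 1 and 0. Of the 1804 intron reads of the 6 pseudogenes, Igkv2-116 had 1768. Whether reads at an intron came from that gene or from a related one was not tested, so the number of V genes with an intron is uncertain.

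Igkv1-135 (chr6:67559788-67560189) had 3205 reads, 1512 in R1 and 1693 in R2. On the minus strand Igkv10-94 (chr6:68654800-68654923) had 3001 reads, 1344 and 1657. Igkv3-10 (chr6:70522676-70522914) had 2726 reads, 2066 and 660. Igkv4-86 (chr6:68860699-68860883), on the minus strand, had 2559 reads, 1707 and 852. Igkv2-137 and Igkv1-135 are the 2 plus-strand V genes farthest from C among those with an intron in the list, and Igkv3-4 is among the nearest, so high intron counts came from both ends of the locus.

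V to J gaps did not follow intron reads along the locus. Of 39 plus-strand V genes with an intron in the list, 13 lay as near to C as the farthest joined gene, at most 511 kb away, and 11 of these had V to J reads, 3663 beside 12561 intron reads. The 2 without, Igkv3-9 and Igkv3-11, had 40 and 9 intron reads. The other 26 had 22308 intron reads and no V to J junction. Of those, 25 lay at 1790 to 3170 kb from C, farther than the longest gap anywhere in the list, which was 1627483 bases. The remaining one, Igkv8-26 at 533 kb, had 10 intron reads. The 53 minus-strand V introns had 30302 reads, and V to J junctions were not sought for their genes. The cause of this limit of distance was not tested.

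Among the 11 joined genes with an intron in the list, V to J reads ranged from 0.623% (Igkv6-25, 4 of 642) to 82.8% (Igkv3-7, 318 beside 384) of the intron reads. Igkv3-4 had 27.3%, Igkv3-10 16.6% and Igkv6-17 55.9%. Some reads that cover a V to J join do not reach the intron, so the 2 numbers are not parts of one another.

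Most reads of the gaps between V genes came from rows that joined the start of 1 V gene's intron to the end of another's. These were 61 of the 246 junctions, with 13358 of the 14233 reads. All 61 had tag C, and 58 joined genes of the same V subgroup, whose sequences are close. In 10 of the 61, with 6532 reads, the reads were within 5% of the intron reads of 1 of the V genes.

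Igkv10-96 to Igkv10-94 (chr6:68582255-68654923) had 2513 reads, beside 2511 for the Igkv10-96 intron and 3001 for the Igkv10-94 intron. Igkv2-116 to Igkv2-109 (chr6:68101928-68252839) had 1761 reads, beside 1768 and 1759 for the introns. Igkv1-117 to Igkv1-110 (chr6:68071131-68220948) had 1284 reads, beside 1077 and 1284. Its tag counts, 509 R1 and 775 R2, equalled those of the Igkv1-110 intron. Igkv6-29 to Igkv6-20, with 165 R1 and 370 R2 reads, likewise equalled the Igkv6-29 intron in both tags. Igkv10-96 to Igkv10-94 had 1153 R1 and 1360 R2 reads, beside 1153 and 1358 for the Igkv10-96 intron. Whether the same reads were counted in several of these rows was not tested, so the intron counts of closely related V genes are uncertain and sums over members are given as listed.

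A minus-strand pair showed the same pattern outside annotated genes. A gap of 197 bases (chr6:70322353-70322549) had 1107 reads, and a gap from Igkv8-24 to the same last base (chr6:70167168-70322549) had 1106, beside 1111 for the Igkv8-24 intron. No minus-strand V gene of GRCm38 was annotated at that distance from C. Within single V genes the largest unmatched gaps were in Igkv15-103 (1299 reads, 111 bases, no tag C) and Igkv12-89 (1159 reads, 118 bases, tag C), both chosen after their values were seen.

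Gap lengths formed 2 ranges. Under 1 kb lay 253 junctions (32.7%), 1 to 10 kb 75 (9.7%), 10 to 100 kb 189 (24.5%) and over 100 kb 256 (33.1%). In the whole list the shares were 45.7%, 38.3%, 11.2% and 4.85%. Weighted by reads, gaps under 1 kb held 47.5% and those of 1 to 10 kb, which include the J to C gaps, held 39.4%. The median gap was 31648 bases, against 1221 in the whole list.

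The longest gap, 633957 bases on the minus strand from Igkv4-86 to Igkv4-57-1 (chr6:68860634-69494590), had 2 reads and tag C. The next 4, of 582363 to 609606 bases, ran into the C exon on the plus strand without tag C and had 2 to 4 reads, all in R2. The 5 shortest gaps, of 33 or 34 bases, had 2 to 6 reads and no tag C. They lay in Igkv7-33, in the C exon and beyond C.

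Past the C exon 15 plus-strand junctions held 190 reads. The largest (chr6:70693068-70698952) had 57 reads, 34 in R1 and 23 in R2, and the next (chr6:70690806-70693002) had 41 reads, 20 and 21. By distance, 2 of the 15, with 5 reads each, were introns of Gm30211.

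Irreproducibility, a value that the list gives for each row, was 0.1 or less in 280 members (36.2%), against 54.6% of the whole list. It was that low in 96.7% of V gene introns, 57.1% of J to C gaps, 44.2% of V to J gaps and 27.2% of gaps between V genes. Tag C was present in 51.1% of members, which held 96.1% of their reads, against 78.7% of the whole list. Tag A was present in 8.15% of members and in 56.6% of the whole list.

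Reads in R1 and R2 were then compared junction by junction. The exact two-sided binomial test with TMM-scaled tag totals and Benjamini-Hochberg adjustment over all 120057 junctions with 10 or more reads asked whether the tags differed beyond counting error. It compares these libraries only, with no replicate check. In the whole list 20.5% passed at 0.05, 8.52% higher in R2 and 12.0% higher in R1. Of 247 tested members 109 passed (44.1%), 46 higher in R2 and 63 higher in R1. With 50 or more reads, 90 of 137 members passed against 33.1% of the list. Only members with enough reads entered the test, so these counts describe the deeper members. Gaps between V genes gave 23 of the 109, and some of these had the same tag counts as a V gene intron. Passing members therefore need not rest on separate reads.

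Of V gene introns 56 of 86 passed, with 32 higher in R1 and 24 higher in R2. The Igkv3-10 intron was lower in R2 by a log2 ratio of -1.70 (adjusted p = 1.14e-177, edgeR TMM scaling), and that of Igkv3-4 by -1.94. Of V to J junctions 18 of 53 passed, 12 higher in R1 and 6 higher in R2. Igkv3-10 to Igkj5 had the lowest log2 ratio of R2 to R1 among those with 100 or more reads, -4.12, and Igkv3-7 to Igkj1, with 11 R1 and 94 R2 reads, the highest, 2.82.

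Among the J to C gaps, Igkj5 to C was lower in R2 by a log2 ratio of -0.33 and Igkj1 to C by -0.21, and Igkj2 to C was higher by 0.11. Igkj4 to C did not pass, with a log2 ratio of 0.05. In whole tissue, fewer cells of a type and less RNA per cell cannot be told apart.

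The gene tables gave the levels of the same genes in TPM, a transcript abundance that allows for gene length and sums to a fixed total. Igkc had 15353 TPM (library 1) and 10667 TPM (library 2), a mean of 13010 ± 3310 (SD, n = 2). The J segments were listed at 0 in both tables. Igkv3-4 had the highest level of the V genes, 365 and 125 TPM, followed by Igkv2-137 with 262 and 220 TPM and Igkv4-59 with 205 and 263 TPM.

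The next were Igkv6-23 (mean 170 TPM), Igkv1-135 (134.5), Igkv10-96 (134.1), Igkv1-110 (117.6), Igkv4-68 (110.3), Igkv4-63 (105.3) and Igkv6-15 (103.1). Of neighbours in this order, Igkv4-59 and Igkv6-23 (193 and 147 TPM) had values that did not overlap, and all other neighbours overlapped, with SDs over the 10 genes from 2.06 to 170 TPM (n = 2). Igkv4-59 had 13 intron reads in the list beside its third-highest level, and Igkv4-63 had no intron matched.

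Among 105 V genes with an entry, 85 were at 1 TPM or more in both libraries. By the exact binomial test on gene counts, with TMM scaling and Benjamini-Hochberg adjustment over all genes tested, 50.7% of 17547 genes differed between the libraries beyond counting error. Of 91 tested V genes 55 passed, 40 higher in library 2 and 15 higher in library 1, with a median log2 ratio of 0.30 against 0.0048 over all genes tested. Igkv3-4 was lower in library 2 (log2 ratio -1.28) and Igkv1-135 higher (1.27). Igkc itself was lower by -0.22. These ratios are of scaled counts, and TPM could go the other way. Igkv6-15 passed as higher in library 2 (log2 ratio 0.23) but was at 104.6 and 101.7 TPM. Igkv2-137 had a log2 ratio of 0.0018 beside 262 and 220 TPM. Directions of the V genes by TPM were not counted, so the 40 and 15 hold for scaled counts only.

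The ratios from the junction tags and from the gene tables could be set side by side for the 70 V genes with at least 20 reads in each. Both had the same sign in 55 of them, and in 16 of the 18 where the intron reads differed over 2-fold. As a description across genes, which share libraries and are not replicates, the log2 ratios had a Pearson r of 0.746, and intron reads and summed gene counts a Spearman rho of 0.667. Igkv3-5 was 1 exception, with 759 R1 and 245 R2 intron reads but 670 and 875 gene counts. Its intron end was shared with gaps from 4 other V genes. Igkv2-137, with the most intron reads, had a log2 ratio of -0.85 in the tags and 0.0018 in the gene tables. For Igkv1-135 the ratios were 0.10 and 1.27. Genes with many intron reads but few gene counts, such as Igkv6-29 and Igkv13-85, did not enter this comparison.

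**Figure D5:**
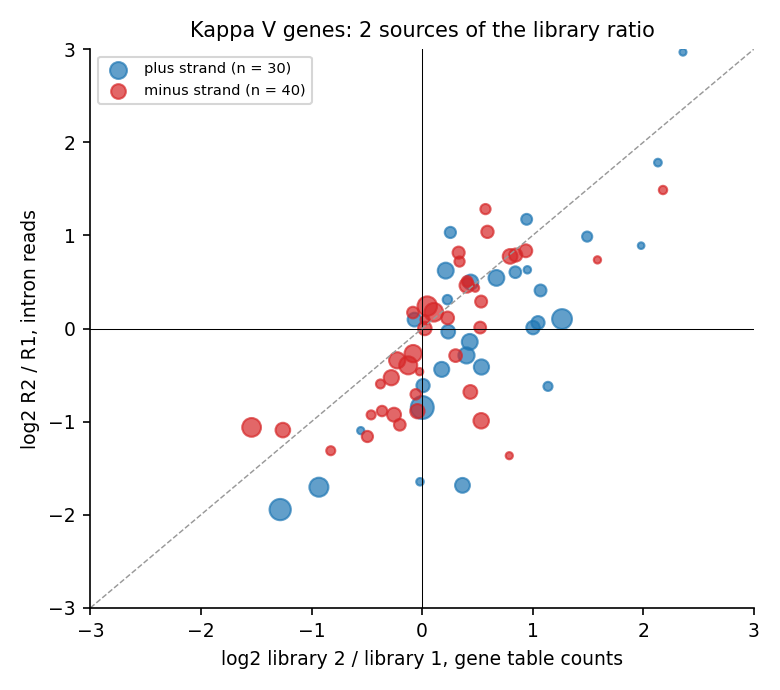
Each point is a V gene, 30 on the plus and 40 on the minus strand, with the log2 ratio of library 2 to library 1 in the gene tables on the x axis and the log2 ratio of R2 to R1 intron reads on the y axis, sized by the square root of the intron reads. The dashed line marks equal ratios, and 55 of the 70 points lie in the 2 quadrants of equal sign.

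Other genes of the pathway are given from a list chosen with earlier results known, and the counts of its members are to be read beside the 50.7% of all tested genes that passed the same test. Of the light chain group, Vpreb3, a surrogate light chain relative, was at 263 and 160 TPM and Iglc2, a lambda constant gene, at 438 and 352 TPM. With Igkc, 3 of 4 tested genes of this group passed the binomial test, all lower in library 2. Vpreb1, a surrogate light chain gene of early B cells, was at 1.78 and 1.02 TPM, Igll1 at 0.22 and 0.04 TPM, and Vpreb2 was listed at 0. Iglc1 and Iglc3 were not matched by symbol.

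All 4 receptor partners passed by scaled counts: Cd79a and Ighm, lower in library 2, and Cd79b and Ighd, higher (log2 ratios 0.07 and 0.09). By TPM, Cd79b (530 and 499) and Ighd (351 and 342) were lower in library 2. Cd79a, the signalling chain of the B cell receptor, was at 1130 and 863 TPM, and Ighm, the heavy chain of IgM, at 5731 and 4853 TPM. The recombinase genes were near 0, with Rag1 at 0.11 and 0.06 TPM and Rag2 at 0.01 TPM in both, from 2 and 1 counts. Of the 9 recombination and repair genes tested 4 passed, a share near the 50.7% of all genes, with Prkdc, Xrcc5 and Dclre1c higher in library 2 and Lig4, the ligase of end joining, lower.

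Of 16 transcription factors known to act at the kappa locus, all were at 1 TPM or more in both libraries and 13 passed (50.7% over all genes). By scaled counts Irf8 and Ctcf were higher in library 2, although Irf8 was at 218 and 212 TPM. By the same counts 11 were lower, among them Pax5 (146 and 106 TPM) and Pou2af1 (211 and 139 TPM). Irf4 was at 15.7 and 14.7 TPM and did not pass. Beside these, 5 of 6 B cell markers were higher in library 2 by scaled counts and 1 lower. Cd79b was among the 5, although its TPM was lower in library 2. Of 6 plasma cell markers 1 was higher and 3 were lower. The part of these markers in the kappa ratios was not tested.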

How the data were processed

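The deposited junction list gives counts of reads per junction, an irreproducibility value read like a p-value, and a further whole-number score that was not used, on mm9 without column names, per the deposited notes. The contig list gives the authors' coverage level, or signal, on mm9. The deposited gene tables (mm10, GENCODE M4, per the deposited notes) give expected counts, TPM and FPKM computed by the authors per library. The aligner, junction caller and quantifier were not given in the sources used here. Splice motifs could not be read because no mm9 genome was used.

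Junction ends were matched to GRCm38 annotation (GENCODE M21) by strand, gap length and distance to the C exon, and no coordinates were converted. A V to J gap began from 10 bases past to 30 bases before an annotated plus-strand V end, and ended from 10 bases before to 20 bases into a J segment. Expected counts were rounded for tests. Libraries were compared by an exact two-sided binomial test with TMM sizes (edgeR 4.0.16, R 4.3.3), at least 10 counts, Benjamini-Hochberg adjustment over all features and a threshold of 0.05. The test was checked on simulated counts. Log2 ratios used a prior count of 2. Python 3.11.15, scipy 1.17.1 and statsmodels 0.14.6 did the rest. DESeq2 1.42.0 size factors were an alternative.

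The members, gene lists and classes were chosen with earlier results of these data known. Named junctions were the 10 with the most reads, the 5 most shared ends, and the 5 longest and 5 shortest. Named genes were Igkc, the J segments, the 10 V genes of highest mean TPM and the pathway lists. Junctions of V to J, V gene and between-gene classes named beyond these were chosen after their values were seen.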

Additional observations from a re-analysis of the deposited data

How the results depend on the processing

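The number of junctions followed the minimum of reads: 329 with 5 or more, 247 with 10 or more, 1512 with no minimum and 280 at an irreproducibility of 0.1 or less, in place of 773. The share of members with a shared end was 78.3%, and 83.1% when ends within 2 bases were merged. The plus-strand share was 64.9% by junctions and 72.5% by reads, and the share of gaps over 100 kb was 33.1% by junctions, 7.09% by reads and 27.1% at a minimum of 5 reads. Between the tags, leaving out replicate 1 or replicate 2, the J to C shares ranged from 34.6% to 35.5% (Igkj1), 15.7% to 19.1% (Igkj2), 9.39% to 11.0% (Igkj4) and 35.3% to 39.4% (Igkj5). The V to J shares ranged from 34.4% to 43.8%, 28.8% to 33.9%, 4.73% to 7.74% and 19.6% to 27.0% in the same order. The in-frame share of V to J reads, an alternative chosen after seeing the data, was 98.2% with no minimum, 99.9% at a minimum of 5 reads, 85.9% by junctions, and 98.1% to 99.3% without 1 replicate. The J to C shares did not move with the minimum of reads. Counts of V genes that differed between the libraries stayed within 1.5 times under total counts, DESeq2 size factors and a minimum of 50 counts. Igkv6-23 passed under total counts. Igkc was at 10667 to 15353 TPM without 1 replicate. No paired analysis was possible because there is a single group. The depth limits shares of rare joins, since a V to J join with 0 of 3665 reads may still hold up to 0.0819%.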
